A study of Mus musculus with 40 samples.

Results

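The genes described here are 34 cilium genes of the mouse, of 37310 genes in the deposited table. They were chosen by name and not by their values, and they fall into 3 sets. The motile axoneme set has 11 genes, which are Foxj1, Tekt1, Tekt2, Tekt4, Rsph1, Rsph4a, Rsph9, Spag6, Spag16, Spag17 and Hydin. The Ift and Bbs set has 19 genes (Ift20, Ift27, Ift46, Ift52, Ift57, Ift74, Ift80, Ift81, Ift88, Ift122, Ift140, Ift172, Bbs1, Bbs2, Bbs4, Bbs5, Bbs7, Bbs9 and Ttc8), and Rfx2, Rfx3, Tppp3 and Nek11 make up the remaining 4. Each gene was measured as an RSEM expected count, which estimates the reads that stem from that gene, and is given as log2 CPM, the depth-scaled count on the log2 scale, with TMM scaling of the library sizes and a prior count of 2.

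The samples were RNA-seq libraries from female A/J and SWR/J mice that entered the study at about 8 weeks of age. N-nitrosotris-(2-chloroethyl)urea (NTCU), a carcinogen painted on the skin, gives these mice lesions of the airway epithelium that range from mild dysplasia to squamous cell carcinoma (SCC). Of 40 libraries, 25 carried the passed quality label and were used: 7 normal samples (3 A/J and 4 SWR/J, acetone vehicle and an NTCU dose of 0), 5 with mild dysplasia (all SWR/J, 15 µmol NTCU) and 13 high-grade samples (5 A/J and 8 SWR/J, between 14 and 50 µmol). The high-grade samples were 9 moderate to severe dysplasias, 2 severe dysplasias, 1 carcinoma in situ and 1 SCC tumor, and 13 of the 25 libraries came from laser capture microdissection (LCM) of the lesion or epithelium and 12 from whole lung sections. All dysplasias came from treated animals and all normal samples from vehicle animals, so grade and NTCU cannot be told apart.

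Motile cilia are the beating cilia of multiciliated airway cells, and their axoneme carries tektins in the outer doublets, radial spokes, and a central pair apparatus. Foxj1 is the transcription factor that switches on the motile cilium programme, and Rfx2 and Rfx3 bind X-box sequences in promoters of cilium genes. Intraflagellar transport (Ift) particles carry cargo along the axoneme of motile and primary cilia alike, and the BBSome, of which the Bbs genes and Ttc8 encode subunits, moves membrane proteins in and out of cilia.

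Promoters of the members were searched for the sequences of these regulators because the members were measured together. RefSeq promoters (GRCm38.p6, from 250 bases before to 50 bases after the start of the gene) were matched for 27 of the 34 members by symbol, all but Foxj1, Rsph1, Rsph4a, Tppp3, Ift80, Ift81 and Ift122. Both strands were searched. The X-box half-site GTTGCC stood in 16 of these 27 members (59.3%) and in 14.1% of all 27025 genes with a promoter. It stood in 6 of 8 motile axoneme genes and in 8 of 16 Ift and Bbs genes. A looser, nearly palindromic X-box, the letters GTTNCC, any 3 bases and GNAAC, stood in 4 of 27 members (14.8%) and in 0.936% of all genes. It can contain the half-site, and the stricter form, GTTNCC, any 2 bases and GGNAAC, a subset of it, stood in 1 member, Bbs7, and in 0.529% of all genes. The forkhead sequence GTAAACA was found in 0 of 27 members and in 4.05% of all genes. A match is a string of letters in this window and no measure of binding.

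The 4 members with the looser X-box are shown because 3 of them encode parts of the motile axoneme (Hydin, Spag16 and Tekt4) and 1 a BBSome subunit (Bbs7). Each line gives 50 bases on the strand of the gene, 5′ to 3′, with the 14 bases of the match in capitals. In Hydin and Tekt4 the match is on the opposite strand, so their capitals are the reverse complement of the motif.
Bbs7, chr3:36613479-36613528, minus strand: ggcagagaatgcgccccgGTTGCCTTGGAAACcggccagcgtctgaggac
Hydin, chr8:110266938-110266987, plus strand: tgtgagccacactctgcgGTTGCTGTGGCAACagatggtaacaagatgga
Spag16, chr1:69826849-69826898, plus strand: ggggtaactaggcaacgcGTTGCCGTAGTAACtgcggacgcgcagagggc
Tekt4, chr17:25471572-25471621, plus strand: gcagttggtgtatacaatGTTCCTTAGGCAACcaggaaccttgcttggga
In Bbs7 the match began 121 bases before the start, in Spag16 103 bases before it and in Hydin 21 bases before it, and in Tekt4 it began at the start itself.

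All 34 members passed the filter on low values, as did 15630 genes of the table. Their levels per length are given as CPM per kb of annotated exon. Tppp3, a tubulin-binding protein that is abundant in ciliated cells, had the highest median over the 25 samples, 160 CPM per kb. Ift20, the subunit that also resides at the Golgi, followed with 45.001 CPM per kb. Rsph1, a radial spoke head protein, had 14.2 and Foxj1 12.99 CPM per kb, each close to Ift27 (14.4) and Ift52 (10.7). At the lower end stood Hydin, a very large central pair protein, with 0.276 CPM per kb, Nek11, a NIMA-related kinase, with 0.301, and Spag17, a central pair protein, with 0.377. The orders of Rsph1, Foxj1 and Ift27 are not separated by the spread, since Foxj1 alone ranged from 0.615 to 61.8 CPM per kb.

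The sets differed in how much they varied. Over the 25 samples the range of log2 CPM within a motile axoneme gene was between 5.22 (Rsph9) and 7.89 (Spag6), and within an Ift or Bbs gene between 1.07 (Ift52) and 4.18 (Ift74), so the ranges of the sets did not overlap. The median SD of log2 CPM was 1.63 in the motile axoneme set, 0.76 in the Ift and Bbs set and 0.73 over all tested genes, of which 90% lay below 1.62. Ift52, Ift140, Ift27 and Ift20 had the smallest SDs, 0.26, 0.39, 0.40 and 0.43. The motile axoneme genes also had fewer reads, with median counts from 23 (Spag17) to 380 (Foxj1), against 43 (Ttc8) to 543 (Ift20) in the Ift and Bbs set, and counting error makes up more of the spread of a gene with few reads. No read was counted for Spag6, Spag16 and Nek11 in normal replicate 8, for Spag16 and Hydin in severe dysplasia replicate 2, or for Spag16 in severe dysplasia replicate 4. A count of 0 allows up to 3 counts, which is 0.458, 1.21 and 0.297 CPM in these 3 libraries, counting error only.

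**Figure D1:**
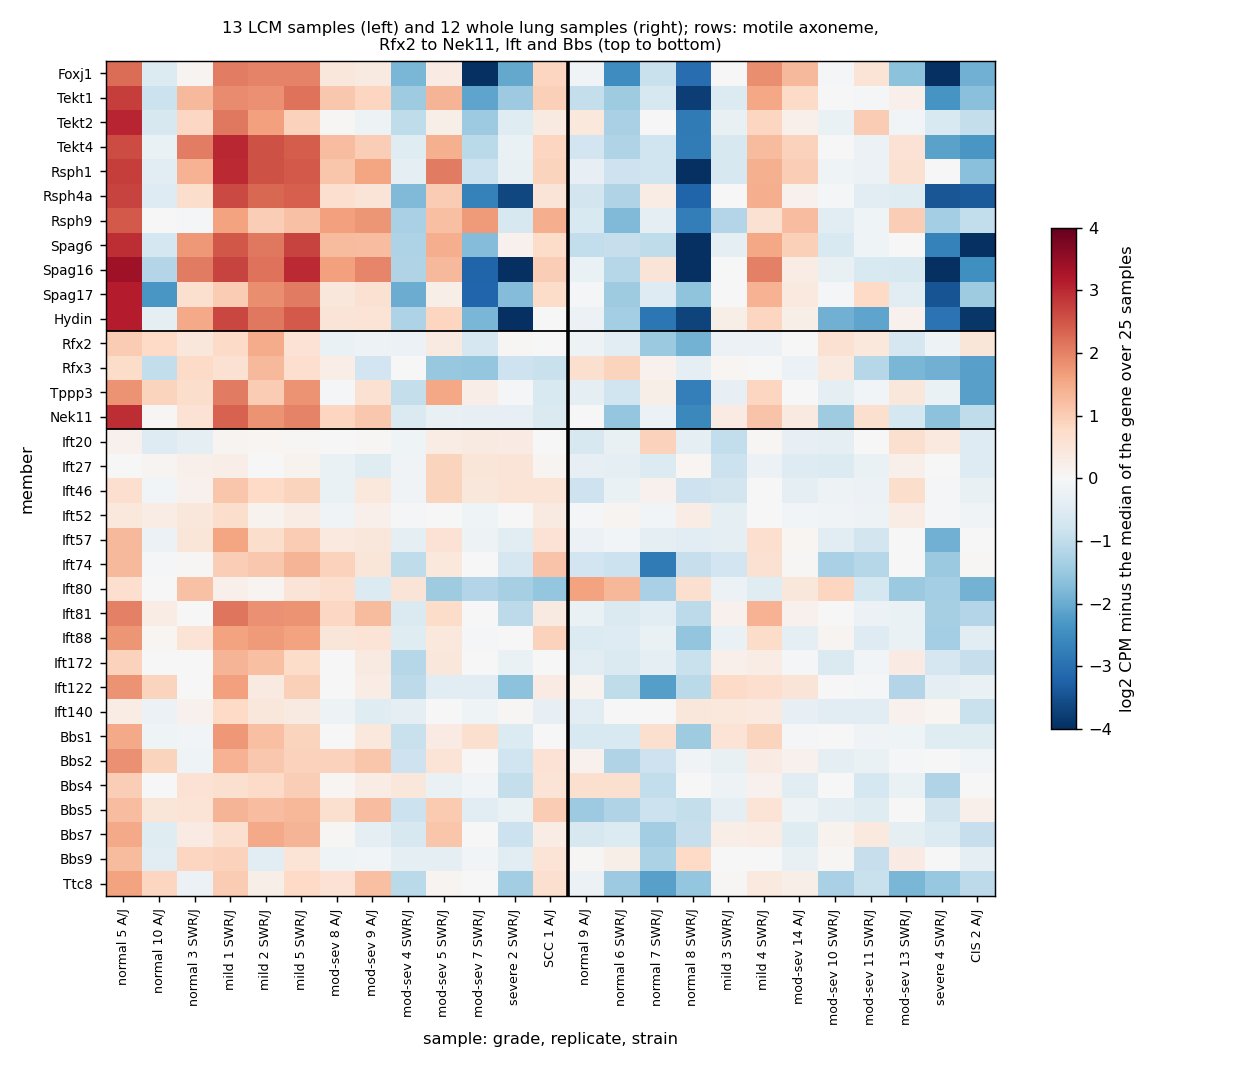
Log2 CPM of each of the 34 members (rows) minus the median of that gene over the 25 samples, in 13 LCM samples and 12 whole lung samples (columns, labelled by grade, replicate and strain). The colours stop at 4 in either direction, the motile axoneme rows at the top are dark red in normal replicate 5 and the 3 LCM mild dysplasias, and Ift20, Ift27 and Ift52 are pale in nearly every sample.

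The plot of members by sample shows which libraries set these ranges. Of the 11 motile axoneme genes, the lowest library was normal replicate 8 (whole lung, SWR/J), a severe dysplasia, or, for Foxj1, moderate to severe dysplasia replicate 7, and the highest was normal replicate 5 (LCM, A/J) or mild dysplasia replicate 1 (LCM, SWR/J). Per sample, the total expected count ran from 2667387 to 16534728 (median 9075416), and the median TIN, a score of RNA integrity, ranged from 21.7 to 75.1. Normal replicate 8 and severe dysplasia replicate 2 depart by over 2 SD from the rest in the study's sample measures, and 2 other passed samples (mild dysplasia replicate 5 and normal replicate 10) carry another histology in their description than in their grade label. The counts of calls below are therefore also given without them where they moved. The labels name no animals, and if samples share animals the p-values are too small. Mild dysplasia replicates 2 and 5, both SWR/J LCM samples, share a number in their titles and may come from the same animal. No pair of libraries with the same grade label was a duplicate. The closest such pair, mild dysplasia replicates 1 and 5, still differed by a chi-square of 20.9 per gene. Pairs with different grade labels were not compared.

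Foxj1 had its highest mean in mild dysplasia. Its log2 CPM was 7.15, 7.09, 5.10, 6.95 and 7.08 in mild dysplasia replicates 1 to 5, between 2.06 and 7.34 (median 4.54) in 7 normal samples and between 0.87 and 6.39 (median 5.05) in 13 high-grade samples. The mean was 6.68 ± 0.88 (SD, n = 5) in mild dysplasia, 4.42 ± 1.75 (n = 7) in normal and 4.18 ± 1.84 (n = 13) in high-grade samples. Of the 5 mild dysplasias, 4 lay above all normal samples but normal replicate 5, and all 5 lay above 5 of the 7 normal samples. Among SWR/J whole lung samples alone, the mild dysplasias (5.10 and 6.95) were above the 3 normal samples (2.61, 4.203 and 2.06). Among SWR/J LCM samples the mild dysplasias (7.15, 7.09 and 7.08) were above the single normal sample (5.2004). In bulk RNA, a difference in the share of ciliated cells and a difference in these RNAs per ciliated cell cannot be told apart.

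The question of the grade comparisons was how the members change along the path from normal epithelium to SCC, and each was made with edgeR's robust quasi-likelihood test with strain, sample type and median TIN as covariates and with Benjamini-Hochberg adjustment over all tested genes. In mild dysplasia against normal, 7 of 34 members rose and 0 fell at an adjusted p under 0.05. Over all tested genes 5.21% rose and 7.24% fell. All 7 were Ift or Bbs genes: Ift81, Ift74, Ift88, Ift172, Ift122, Bbs5 and Ttc8. Of the 11 motile axoneme genes 0 passed and 4 had an unadjusted p under 0.05, as did 32.7% of all tested genes. DESeq2 called 11 of the 34 members and 3624 genes in all. The motile set had larger standard errors and a larger median log2 fold change than the Ift and Bbs set. The log2 fold changes of the 11 motile genes were all positive, with a median of 1.60 and a range from 0.84 to 2.43, and standard errors from 0.64 to 1.04. Those of the 19 Ift and Bbs genes had a median of 0.79 and a range from -0.74 to 1.60, with standard errors from 0.16 to 0.56. The median over all tested genes was -0.02.

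Among the IFT-B genes, whose products form the particle that moves towards the ciliary tip, 4 of 10 rose in mild dysplasia. Ift81, which with Ift74 forms the module that binds tubulin, was 5.83, 5.54, 3.87, 5.10 and 5.52 in the mild dysplasias and between 2.66 and 5.72 (median 3.45) in normal samples. All 5 mild dysplasias were above 5 of the 7 normal samples, and the groups overlapped through the remaining 2. It rose 3.02-fold, a log2 fold change of 1.60 (SE 0.41, adjusted p = 0.0243 in edgeR). Ift172, a peripheral IFT-B subunit, was 6.31, 6.17, 5.15, 5.26 and 5.69 against 4.07 to 5.86 (median 4.59), and 6 of the 7 normal samples lay below all mild dysplasias. It rose by a log2 fold change of 1.04 (SE 0.28, adjusted p = 0.0261). Ift74 rose by 1.36 (SE 0.38) and Ift88, the gene behind the Oak Ridge polycystic kidney mouse, by 1.16 (SE 0.35), with adjusted p-values of 0.0296 and 0.0352. Ift20, Ift27 and Ift52 did not move in this way, with log2 fold changes of 0.02, -0.25 and -0.04. Ift80 had -0.74 (SE 0.56, adjusted p = 0.372) and did not pass, but 5 of the 7 normal samples lay above every mild dysplasia.

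Of the IFT-A genes, which serve the return transport, Ift122 rose by a log2 fold change of 1.34 (SE 0.42, adjusted p = 0.0427) and Ift140 had 0.30 (SE 0.18, adjusted p = 0.263). Of the 7 BBSome genes 2 rose. Ttc8 (BBS8) was 3.79, 3.02, 2.82, 3.16 and 3.56 in mild dysplasia and between 0.60 and 4.38 (median 2.52) in normal samples, and 5 normal samples lay below every mild dysplasia. It rose by 1.24 (SE 0.34, adjusted p = 0.0275), and Bbs5 by 1.197 (SE 0.38, adjusted p = 0.0425). Bbs9 and Bbs4 had log2 fold changes of -0.19 and 0.13.

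Within the motile axoneme set the smallest p-values belonged to Foxj1, Rsph1 and Tekt4. The log2 fold change of Foxj1 was 2.43, or 5.40-fold (SE 0.85, adjusted p = 0.0603). That of Rsph1 was 1.81 (SE 0.70, adjusted p = 0.0820) and that of Tekt4, a tektin, 1.60 (SE 0.70, adjusted p = 0.117). Rsph1 was 7.06, 6.62, 3.44, 5.50 and 6.52 in mild dysplasia against -0.03 to 6.83 (median 3.62) in normal samples, and mild dysplasia replicate 1 alone lay above the normal range. Hydin was 4.94, 4.36, 2.49, 3.12 and 4.71 against -1.44 to 5.40 (median 1.85), and 5 of 7 normal samples lay below all mild dysplasias. Outside both sets, Nek11 had a log2 fold change of 1.82 (SE 0.74, adjusted p = 0.0941), Tppp3 0.98 (SE 0.56, adjusted p = 0.220), Rfx2 0.72 (SE 0.42, adjusted p = 0.234) and Rfx3 0.14 (SE 0.50, adjusted p = 0.877).

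The count of 7 rests on few libraries. Among the mild dysplasias, it was 0 without replicate 1, 2 without replicate 2, 1 without replicate 4 and 3 without replicate 5. Among the normal samples, it was 0 without replicate 3, 15 without replicate 5, 3 without replicate 6 and 2 without replicate 8. It was 0 in LCM or whole lung samples alone, and 3 without the 2 samples that depart. The lack of motile calls depended on single libraries too. With 1 sample left out, the adjusted p of Foxj1 ran from 0.0259 to 0.117 in edgeR. That of Rsph1 ran from 0.0248 to 0.173 and that of Tekt4 from 0.0518 to 0.219. The median log2 fold change of the motile axoneme set stayed between 1.38 and 2.11 as each sample was left out, and that of the Ift and Bbs set between 0.70 and 1.04.

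**Figure D2:**
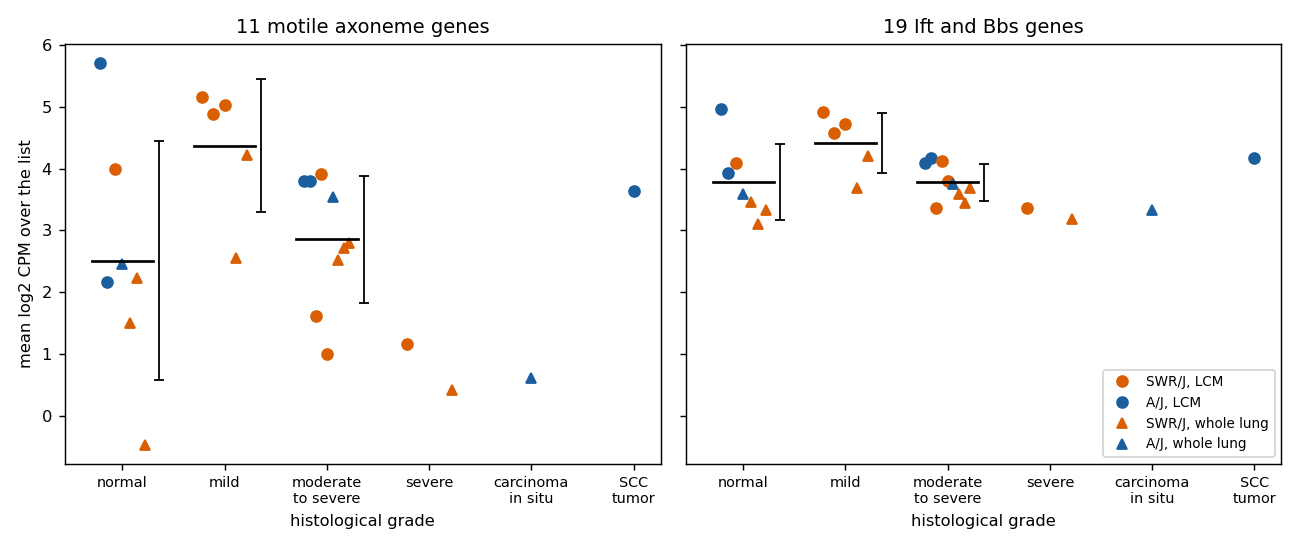
Mean log2 CPM over the 11 motile axoneme genes (left) and the 19 Ift and Bbs genes (right) in each of 25 samples by histological grade, coloured by strain and shaped by sample type, with the mean and SD beside groups of more than 2 samples. The motile axoneme mean spans -0.47 to 5.71, the Ift and Bbs mean 3.11 to 4.97, and the mild dysplasias lie in the upper part of both.

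The plot of set means by grade gives the same levels per sample. The motile axoneme mean was between 2.56 and 5.16 (median 4.88) in mild dysplasia, between -0.47 and 5.71 (median 2.23) in normal samples and between 0.41 and 3.92 (median 2.72) in high-grade samples. The lowest high-grade samples were the 2 severe dysplasias (1.16 in LCM and 0.41 in whole lung) and the carcinoma in situ (0.60, whole lung). With them stood moderate to severe dysplasia replicate 7 (0.998, LCM). The SCC tumor, an LCM sample, was at 3.63, above all but 2 of the 7 normal samples. Of the 3 LCM normal samples, those at 5.71 and 3.99 were above it and the one at 2.16 below. The carcinoma in situ and the SCC tumor differ in sample type, so grade and sample type cannot be told apart between them. The Ift and Bbs mean was between 3.69 and 4.91 (median 4.58) in mild dysplasia, between 3.11 and 4.97 (median 3.59) in normal and between 3.18 and 4.18 (median 3.68) in high-grade samples. The difference of the set means, motile minus Ift and Bbs, had a median of 0.25 in mild dysplasia, -1.14 in normal and -0.88 in high-grade samples, and it was -2.73 in the carcinoma in situ.

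Some markers of other cells also passed in mild dysplasia, where 5.21% of all tested genes rose and 7.24% fell. Beside these shares, a count of 1 or 2 in a short list is only a description. Of 6 immune markers 2 fell (Cd8a and Cd3e), and the sum of all 6 was 66.8 to 513 CPM in mild dysplasia and 199 to 2171 CPM in normal samples. Cd8a was 0.527 to 19.7 CPM in mild dysplasia and 22.97 to 1411 CPM in normal samples. Of 5 cycling-cell markers 2 fell (Bub1b and Top2a), and the sum of all 5 was 40.7 to 107 and 66.6 to 812 CPM. Of 3 mesothelial markers tested 2 rose (Upk3b and Lrrn4). The sum of the mesothelial list, 117 to 1244 CPM in mild dysplasia and 13.3 to 366 CPM in normal samples, was mostly Msln, which did not pass (71.7 to 1242 and 9.002 to 362 CPM). Of 6 alveolar type 2 markers and 5 alveolar type 1 markers 1 each rose (Sftpd and Pdpn), and of 6 club cell, 5 basal, 7 squamous, 5 endothelial and 5 smooth muscle markers 0 passed in edgeR, with an unadjusted p under 0.05 in 1, 0, 0, 2 and 2 of them. Of the immune and cycling markers none was at 0 in a normal or mild sample, and Wt1 was at 0 in 1 normal sample. Median TIN was 39.5 to 57.8 in LCM mild dysplasias and 55.6 to 69.6 in LCM normal samples. In whole lung the order was the reverse, with 63.4 to 75.1 in mild dysplasias and 28.9 to 60.7 in normal samples. The part of these cells and of RNA integrity in the result was not tested.

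In high-grade samples against normal, 0 of 34 members passed, at a background of 0.0192% of all tested genes (3 genes in edgeR). DESeq2 called 0 members and 99 genes in all. An unadjusted p under 0.05 was found in 4 members, Rfx3, Ift140, Ift80 and Ift52, and in 9.14% of all tested genes, a similar share. The following values are therefore a description. Rfx3 was between 2.50 and 4.37 (median 4.11) in normal samples and between 1.29 and 3.85 (median 2.58) in high-grade samples. Its log2 fold change was -1.13 (SE 0.38, adjusted p = 0.397). Ift80, an IFT-B subunit mutated in Jeune syndrome, was between 3.29 and 6.19 (median 5.26) in normal and between 2.69 and 5.43 (median 3.40) in high-grade samples, a log2 fold change of -0.997 (SE 0.43, adjusted p = 0.516). Ift140 and Ift52 had -0.38 (SE 0.15, adjusted p = 0.477) and -0.30 (SE 0.13, adjusted p = 0.520). Hydin (-1.10, SE 0.77, adjusted p = 0.662), Tekt2 (-0.82, SE 0.60, adjusted p = 0.671) and Spag16 (-0.94, SE 0.80, adjusted p = 0.713) had the smallest p-values of the motile set. Foxj1 had 0.09 (SE 0.65, adjusted p = 0.972), Rfx2 0.07 (SE 0.34, adjusted p = 0.956), Tppp3 -0.48 (SE 0.41, adjusted p = 0.714) and Nek11 -0.65 (SE 0.61, adjusted p = 0.740). The median log2 fold changes of the motile and the Ift and Bbs sets were -0.31 and -0.18, and without normal replicate 5 they were 0.25 and 0.032. With each sample left out in turn they ran from -0.54 to 0.25 and from -0.26 to 0.032.

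With grade as a rank from 0 (normal) to 4 (carcinoma in situ or SCC tumor), 0 of 34 members passed in edgeR at a background of 0.262%, 2 had an unadjusted p under 0.05 (13.7% of all tested genes) and DESeq2 called the same number, Ift80 and Rfx3, among 545 genes. Rfx3 changed by -0.52 per step (SE 0.14, adjusted p = 0.09998) and Ift80 by -0.56 per step (SE 0.15, adjusted p = 0.09998). Tppp3 (-0.36, SE 0.17), Ift140 (-0.12, SE 0.06), Bbs4 (-0.15, SE 0.09), Nek11 (-0.48, SE 0.28), Hydin (-0.70, SE 0.35), Rsph4a (-0.55, SE 0.30) and Spag16 (-0.62, SE 0.36) had adjusted p-values from 0.365 to 0.453. Foxj1 and Rfx2 had -0.30 and 0.03 per step, with adjusted p-values of 0.729 and 0.948. The carcinoma in situ had the lowest Rfx3 (1.29) and the lowest Ift80 (2.69) of the 25 samples, and the SCC tumor had 2.58 and 3.03.

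**Figure D3:**
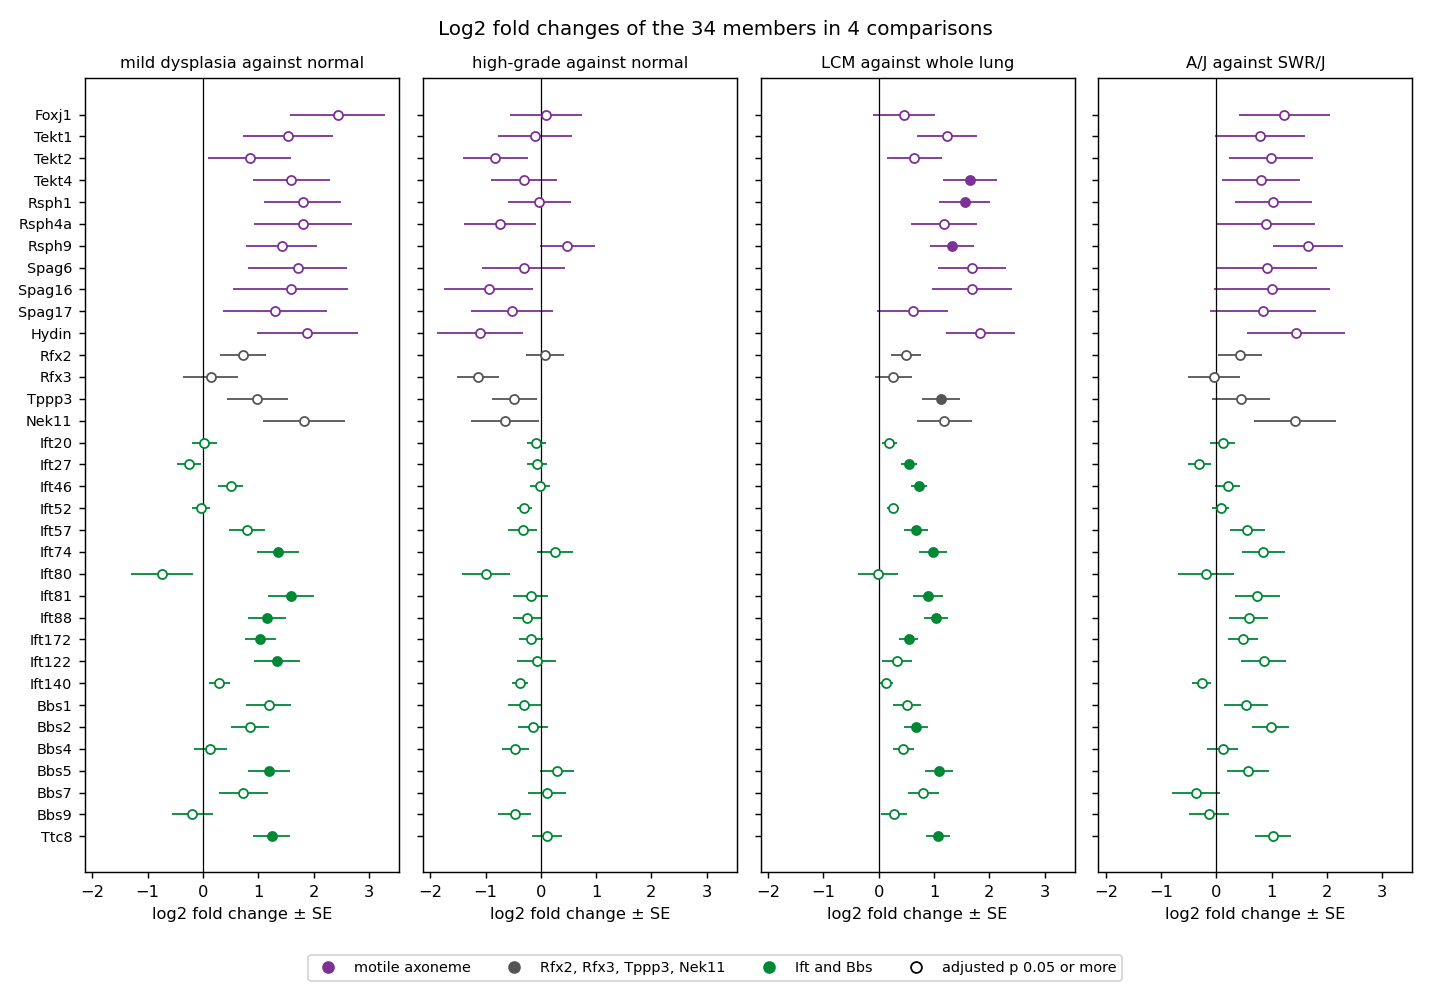
Log2 fold change with its standard error of each of the 34 members in mild dysplasia against normal, high-grade against normal, LCM against whole lung and A/J against SWR/J, from edgeR, with filled points at an adjusted p under 0.05. The filled points are the 7 Ift and Bbs genes of the mild dysplasia panel and the 14 members of the LCM panel, and the motile axoneme genes have the wider bars.

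The sample type was the comparison in which most members moved. In LCM samples against whole lung, 14 of 34 members were higher and 0 lower, where 5.65% of all tested genes were higher and 8.93% lower. These were 10 of 19 Ift and Bbs genes, 3 of 11 motile axoneme genes and Tppp3, and DESeq2 called 19 members among 3343 genes. The median log2 fold changes were 1.33 in the motile set and 0.55 in the Ift and Bbs set. Ift46, an IFT-B core subunit, ranged from 5.35 to 6.72 (median 6.14) in 13 LCM samples and from 4.78 to 6.30 (median 5.36) in 12 whole lung samples. It rose by 0.74 (SE 0.15, adjusted p = 0.00408 in edgeR). Ttc8 rose by 1.08 (SE 0.22, adjusted p = 0.00408) and Ift88 by 1.04 (SE 0.22, adjusted p = 0.00607). Tekt4 was between 1.91 and 5.99 (median 4.23) in LCM and between 0.18 and 4.26 (median 2.27) in whole lung samples, a log2 fold change of 1.65 (SE 0.49, adjusted p = 0.0270). Rsph1 rose by 1.56 (SE 0.46, adjusted p = 0.0286), Rsph9 by 1.33 (SE 0.40, adjusted p = 0.0299) and Tppp3 by 1.12 (SE 0.34, adjusted p = 0.0311). Foxj1 itself had 0.45 (SE 0.56, adjusted p = 0.623), Rfx2 0.50 (SE 0.27, adjusted p = 0.222), Rfx3 0.27 (SE 0.33, adjusted p = 0.621) and Nek11 1.19 (SE 0.49, adjusted p = 0.104).

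All 5 endothelial markers were lower in LCM samples, with sums of 73.7 to 1093 CPM against 144 to 1292 CPM in whole lung. Over all tested genes 5.65% were higher and 8.93% lower. Of 6 club cell markers 3 were higher, with sums of 2247 to 205729 against 768 to 71747 CPM, and of 5 basal cell markers 1 was higher (Ngfr). The median of Cckar, another of the 6 club cell markers, was 1.13 CPM in LCM and 13.2 CPM in whole lung samples. By median all 5 smooth muscle markers were higher in LCM, such as Acta2 at 449 against 200 CPM. Of the mesothelial markers the median of Msln was 584 against 63.7 CPM, while those of Upk3b and Wt1 were lower in LCM. Of 6 alveolar type 2 markers 2 were lower (Sftpc and Lamp3) and of 5 type 1 markers 2 were lower (Ager and Rtkn2), while the median of Aqp5, a type 1 marker that did not pass, was 467 CPM in LCM and 133 CPM in whole lung samples. Their part in the result was not tested. The 14 calls became 6 without mild dysplasia replicate 3, moderate to severe dysplasia replicate 5 or normal replicate 9, and 0 in SWR/J or A/J samples alone.

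Between the strains, 0 of 34 members passed in A/J against SWR/J, at a background of 0.992% of tested genes. DESeq2 called Bbs2 and Ttc8 among 955 genes, and 5 members and 17.5% of all tested genes had an unadjusted p under 0.05 in edgeR, so neither count stood above the background. Ttc8 had a log2 fold change of 1.02 (SE 0.32, adjusted p = 0.122), Bbs2 0.98 (SE 0.33, adjusted p = 0.142) and Ift74 0.84 (SE 0.39, adjusted p = 0.267). In the motile set, Rsph9 had 1.66 (SE 0.63, adjusted p = 0.189), Hydin 1.44 (SE 0.89, adjusted p = 0.401) and Rsph1 1.03 (SE 0.69, adjusted p = 0.439). Foxj1 had 1.22 (SE 0.82, adjusted p = 0.439), Nek11 1.42 (SE 0.73, adjusted p = 0.316), Rfx2 0.42, Tppp3 0.44 and Rfx3 -0.05. All 11 motile genes were positive, with a median of 0.98, and the median of the Ift and Bbs set was 0.47. The motile median was 0.56 without normal replicate 5 and 0.63 without normal replicate 8, and the Ift and Bbs median was 0.30 without moderate to severe dysplasia replicate 4. Median TIN was 53.7 to 69.6 in A/J and 21.7 to 75.1 in SWR/J samples, and the mild dysplasias, all SWR/J, add nothing to this comparison. The A/J high-grade samples had 14 to 20 µmol NTCU and the SWR/J high-grade samples 25 to 50 µmol. Strain and dose therefore cannot be told apart in high-grade samples.

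Whether the high-grade difference itself differed between sample types was tested in 20 normal and high-grade samples. Of 34 members 0 passed, as did 0% of 15519 tested genes, 8 members and 5.75% of all tested genes had an unadjusted p under 0.05, and DESeq2 called 0 members and 4 genes in all. The differences of the log2 fold changes, LCM minus whole lung, were negative in all 11 motile genes, with a median of -2.48, and the median of the Ift and Bbs set was -0.72. Without normal replicate 5 these medians were -1.33 and -0.30, and the latter was -0.46 without normal replicate 7 and -0.35 without moderate to severe dysplasia replicate 13. Ift122 had -1.92 (SE 0.47, adjusted p = 0.820), Rfx2 -1.94 (SE 0.50, adjusted p = 0.820) and Tekt2 -2.92 (SE 1.04, adjusted p = 0.820). Tekt4 (-2.58, SE 1.02), Tekt1 (-2.59, SE 1.22), Foxj1 (-2.13, SE 1.36), Tppp3 (-1.72, SE 0.74), Nek11 (-2.59, SE 1.14), Bbs7 (-1.36, SE 0.63), Bbs5 (-1.18, SE 0.56) and Rfx3 (0.35, SE 0.81) had adjusted p-values from 0.820 to 0.952. In the LCM samples Rfx2 was 4.14, 4.70 and 4.48 in normal and 2.99 to 4.04 in high-grade samples, whereas in whole lung it was 3.22, 2.19, 1.77 and 3.48 in normal and 2.9998 to 4.29 in high-grade samples.

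For the difference between strains, 0 of 34 members and 0% of tested genes passed, 2 members and 4.02% of all tested genes had an unadjusted p under 0.05, and DESeq2 called 0 members and 5 genes in all. The smallest p-values belonged to Ift122 (-1.54, SE 0.57, adjusted p = 0.970) and Bbs7 (-1.43, SE 0.64, adjusted p = 0.970). Rfx2 had -1.28 (SE 0.62), Tekt2 -2.05 (SE 1.12), Bbs2 -0.91 (SE 0.51), Tppp3 -1.37 (SE 0.78), Nek11 -1.51 (SE 1.21), Spag17 -1.44 (SE 1.495), Rsph9 -0.84 (SE 0.98), Foxj1 -0.78 (SE 1.36) and Rfx3 0.29 (SE 0.81), with adjusted p-values from 0.970 to 0.997. Here too, strain and NTCU dose cannot be told apart in the high-grade samples.

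Other genes of the cilium were read from lists outside the members. In mild dysplasia 5.21% of all tested genes rose and 7.24% fell, so a single call in a list says little about that list. In mild dysplasia 1 of 23 dynein arm genes rose, Dnalc1 (1.51, SE 0.46, adjusted p = 0.0373), and the median of the list was 1.61. Of 41 further axoneme genes 1 rose, Capsl (1.84, SE 0.55, adjusted p = 0.0352), with a median of 1.39. Of 18 further transport genes 7 rose, led by Kifap3 (0.89, SE 0.21, adjusted p = 0.0194) and Kif3a (0.91, SE 0.24, adjusted p = 0.0260), parts of the kinesin-2 motor that drives transport to the tip. Of 16 transition zone genes, which form the gate at the ciliary base, 4 rose, led by Tmem231 (1.32, SE 0.37, adjusted p = 0.0296) and Cep290 (0.92, SE 0.28, adjusted p = 0.0356). Of 7 further BBSome-related genes 0 rose and 1 fell, Bbip1 (-1.07, SE 0.25, adjusted p = 0.0195). Of 11 multiciliogenesis genes 1 fell, E2f4 (-0.97, SE 0.31, adjusted p = 0.0448), and 0 of 9 arm assembly genes and 0 of 11 primary cilium signalling genes passed in edgeR, with an unadjusted p under 0.05 in 3 and 2 of them. In high-grade samples none of the genes of these 8 lists passed, and the medians of the lists ran from -0.42 to -0.05.

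In LCM against whole lung, 6 of 23 dynein arm genes, 19 of 41 further axoneme genes and 9 of 18 further transport genes were higher. They were led by Armc4 (1.83, SE 0.50, adjusted p = 0.0176), Capsl (2.57, SE 0.37, adjusted p = 0.000820) and Ttc30b (1.19, SE 0.28, adjusted p = 0.00949). Over all tested genes 5.65% were higher and 8.93% lower. Of 16 transition zone genes 4 were higher, led by B9d1 (1.33, SE 0.20, adjusted p = 0.000966), and 1 was lower. Of the 11 primary cilium signalling genes, which include Smo, 0 passed in edgeR, 1 in each direction had an unadjusted p under 0.05, and their median was 0.11.

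How far the members follow Foxj1 was described in each sample type alone, because LCM and whole lung samples can form separate clusters. Each coefficient was tested with 100000 permutations, two-sided, and adjusted over 66 relations. In 13 LCM samples 26 of 33 members correlated with Foxj1 at an adjusted permutation p under 0.05, all positively: 9 of 10 motile axoneme genes, 13 of 19 Ift and Bbs genes and 4 of 4 others. By rank (Spearman) it was 25. In 12 whole lung samples it was 16 of 33, with 9 of 10, 6 of 19 and 1 of 4, and 16 by rank. The median Pearson r with Foxj1 was 0.91 for the motile genes and 0.68 for the Ift and Bbs genes in LCM, and 0.80 and 0.34 in whole lung samples. The members share libraries and grades, so these coefficients are not independent of each other. Only members were tested, so the share of all genes that would pass is not known. In a ranking of 14209 genes by r with Foxj1, Bbs1, the weakest passing member in LCM samples (r = 0.60), stood at position 1410. Ift57, the weakest in whole lung samples (r = 0.61), stood at 1511. Many genes outside the members thus had an r as high. The passing motile genes stood at positions 28 to 219 in LCM and 4 to 1202 in whole lung samples.

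**Figure D4:**
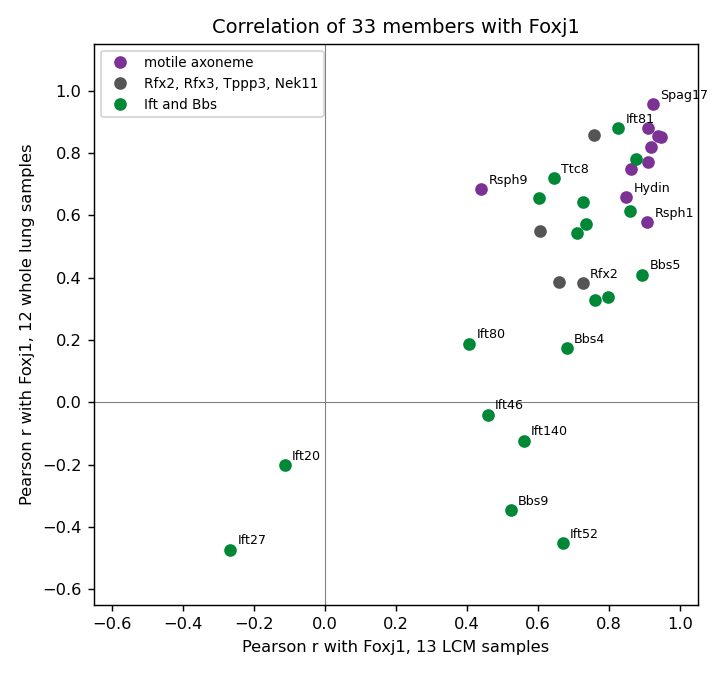
Pearson r of each of 33 members with Foxj1 over 13 LCM (horizontal axis) and 12 whole lung samples (vertical axis), by set. The motile axoneme genes lie in the upper right, with Rsph9 and Rsph1 farthest from the rest, and the Ift and Bbs genes run down to Ift27 at -0.27 and -0.47.

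The plot of correlations places the motile genes together and spreads the Ift and Bbs genes. Tekt1 had the highest r in LCM samples (r = 0.95, rho = 0.90) and Spag17 in whole lung samples (r = 0.96, rho = 0.98). Ift81 (r = 0.83 and 0.88) and Ift88 (r = 0.88 and 0.78) were near the motile genes in both. Bbs5 was high in LCM samples (r = 0.89) and not past the threshold in whole lung (r = 0.41, adjusted permutation p = 0.226). Ift52 was positive in LCM samples (r = 0.67, adjusted permutation p = 0.0228) and negative in whole lung (r = -0.45, adjusted permutation p = 0.179), where it did not pass. Ift27 was lowest in both (r = -0.27 and -0.47), and neither value passed. Rfx2 and Rfx3 had r of 0.73 and 0.66 in LCM and 0.38 and 0.39 in whole lung samples.

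Without the 2 samples farthest from the median of Foxj1 (severe dysplasia replicate 2 and moderate to severe dysplasia replicate 7 in LCM, normal replicate 8 and severe dysplasia replicate 4 in whole lung), 25 and 11 members passed. The median r of the motile genes was then 0.90 and 0.72 and that of the Ift and Bbs genes 0.77 and 0.24. In that whole lung set the Ift and Bbs genes that passed fell from 6 to 2. Ift52 then no longer passed in LCM samples (r = 0.51, adjusted permutation p = 0.152). Its r in whole lung samples was then -0.39 (adjusted permutation p = 0.349). Within the strains there were 5 A/J and 8 SWR/J LCM samples and 3 A/J whole lung samples, and no coefficient was computed within a strain. Over all 25 samples after regression on median TIN, strain and sample type, 26 members passed.

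**Figure D5:**
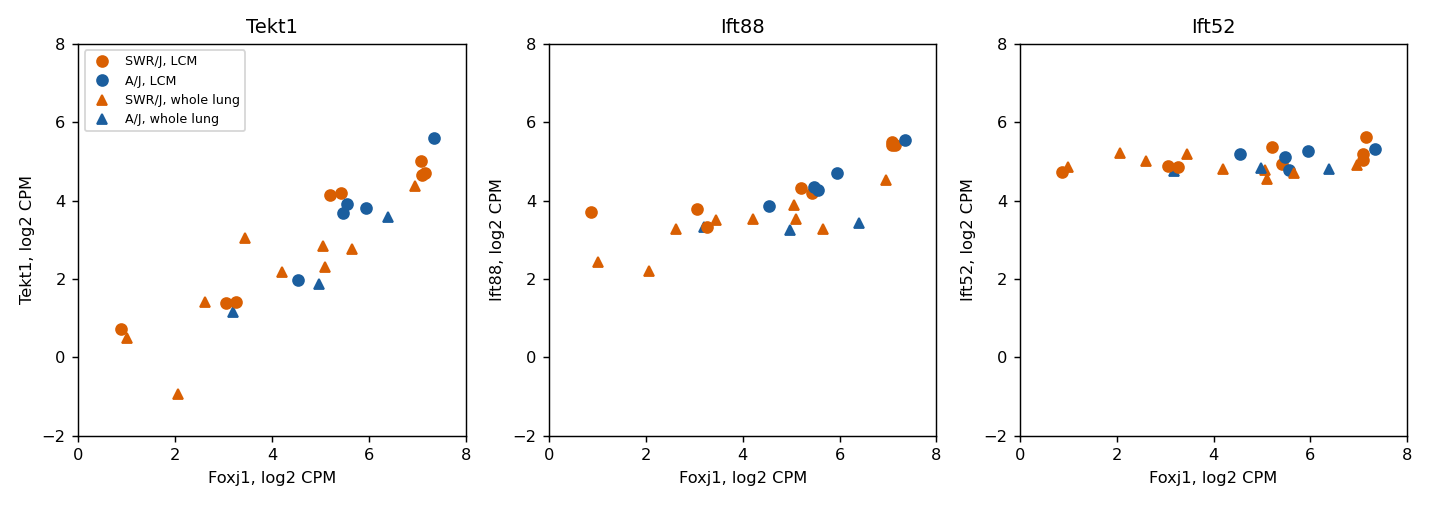
Log2 CPM of Tekt1, Ift88 and Ift52 against log2 CPM of Foxj1 in 25 samples, coloured by strain and shaped by sample type. Tekt1 runs from -0.94 to 5.59 and climbs with Foxj1, Ift88 climbs less, and Ift52 stays between 4.56 and 5.62.

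The scatter of single samples shows the 3 kinds of pattern with Tekt1, Ift88 and Ift52. Tekt1 spanned 6.54 log2 units, Ift88 3.34 and Ift52 1.07. Among themselves, the motile axoneme genes had a median r of 0.91 over 55 pairs in LCM and 0.81 in whole lung samples, and the Ift and Bbs genes had 0.58 and 0.17 over 171 pairs.

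Some rows need care. Spag6 is the gene on chromosome 16 (ENSMUSG00000022783), which has a near copy on another chromosome, BC061194, at -2.22 to 1.43 log2 CPM, and reads shared by both may be split. Exons of Tekt2 overlap the opposite-strand gene Gm12945 (20.8% of its exon bases) and those of Spag17 overlap Wdr3 (9.66%), a gene at a mean of 4.85 log2 CPM. Exons of Nek11, Hydin, Ift57 and Ift88 overlap opposite-strand genes over 1.44% to 7.86% of their bases. The library kit does not mark strand, so reads from such stretches cannot be told apart. In the mm9 annotation (NCBIM37) Foxj1 lies on chromosome 11 from 116192018 to 116196713, Hydin on chromosome 8 from 112790877 to 113134153, and Ift81 on chromosome 5 from 123000213 to 123064527.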

How the data were processed

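RNA was sequenced without strand information. The authors trimmed reads with Trimmomatic, aligned them to mm9 with STAR and deposited RSEM expected counts per Ensembl gene. All 37310 identifiers matched the NCBIM37 annotation. Samples were grouped by their labels, and the 25 samples labelled as passing quality control were used. Expected counts were rounded and tested with edgeR 4.0.16 in R 4.3.3 (TMM, robust quasi-likelihood, covariates median TIN, strain and sample type, Benjamini-Hochberg over 15630 genes whose log2 CPM had an interquartile range above 0 and whose sum was above 1). Median TIN is from the labels. DESeq2 1.42.0, other filters and covariates, subsets and the omission of each sample were the alternatives. Correlations used Python 3.11.15 with numpy 2.4.6 and 100000 permutations, whose smallest p is 1e-05. The scripts were tested on simulated data. Log2 fold changes are printed for Foxj1, Rfx2, Rfx3 and the 3 members of each set with the smallest p-values, with the 2 leading genes of other lists. Further members are given by choice after their values were seen. The members and lists were chosen with earlier results of these data known. The labels do not say whether samples came from separate animals, so the p-values measure the spread between samples, which may be technical.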

Additional observations from a re-analysis of the deposited data

Results flagged for a closer look

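In the group of 5 mild dysplasias, 1 sample stood far from the others in 4 members. Replicate 3, a whole lung sample, was low in Foxj1 (5.10 log2 CPM, the nearest other sample at 6.95), in Tekt1 (2.30, nearest 4.37) and in Ift20 (5.11, nearest 6.15). Replicate 1, an LCM sample, was high in Ift140 (5.196, nearest 4.84). Dixon's test at the 95% level flagged these 4 of 108 groups of values, or 3.70%, and chance flags about 1 in 20.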

How the results depend on the processing

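Of the 34 members, 7 passed in mild dysplasia, and the count was 11 by DESeq2, 4 with no filter on low counts, 3 without the samples with another histology in their description, 3 without the samples that depart (chosen after seeing the data), and 0 without strain and sample type as covariates, in LCM samples alone, in whole lung samples alone and in all 40 samples. Leaving out each sample gave 0 to 15. The rank of grade gave 2 by DESeq2, 2 without median TIN, 1 without strain and sample type, and 0 to 1 with a sample left out. The LCM count of 14 became 0 in SWR/J samples alone, 0 in A/J samples alone (chosen after seeing the data), 8 in all 40 samples, and 6 to 18 with a sample left out. The strain count of 0 became 2 by DESeq2 and 4 without median TIN. High-grade samples and both interactions gave 0 under every alternative run. The motile median in mild dysplasia was 3.32 in whole lung samples alone, and the Ift and Bbs median between strains was -0.10 in all 40 samples. With a sample left out, the motile median of the strain interaction ran from -1.62 to 1.10 and the Ift and Bbs median from -0.53 to 0.17. Over all 25 samples after regression, LCM and whole lung together, the count of correlations with Foxj1 was 26. The causes were not tested.

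Directions turned in these cases, as log2 fold changes. In mild dysplasia Rfx3 was -1.03 in whole lung samples, -0.039 in SWR/J samples, -0.00258 without the other histologies and -0.20 in all 40 samples. In high-grade samples Foxj1 was -0.65 in LCM, -0.036 without the other histologies, -0.404 in all 40 samples, -0.063 without the departing samples and -0.15 in A/J. Rfx2 was -0.99 in LCM, -0.0196 in all 40 samples, -0.069 without the departing samples and -0.36 in A/J. Tekt2 was 0.54 in whole lung and 0.00655 in SWR/J samples, Tppp3 0.044 and 0.11, and Nek11 0.048 in SWR/J. By rank, Rfx2 was -0.0215 without strain and sample type, -0.32 in LCM and -0.0217 in all 40 samples. In A/J samples alone, LCM against whole lung gave -0.45 for Rfx2 and -0.21 for Ift27. Between strains Rfx3 was 0.022 without median TIN and 0.052 without the other histologies, Hydin -0.24 in LCM, and Tppp3 -0.14 without median TIN, -0.063 in LCM and -0.37 in all 40 samples. Without the other histologies the interactions of Rfx3 were -0.053 (sample type) and -0.091 (strain), and in all 40 samples the strain interactions of Foxj1 and Spag17 were 0.18 and 0.032. The r of Ift20 in LCM was 0.57 without the farthest samples, that of Ift27 0.13, and in whole lung those of Ift140 and Bbs4 were 0.20 and -0.20. After regression over 25 samples r was 0.21 for Ift20, 0.60 for Ift46, 0.23 for Ift52, 0.36 for Ift140 and 0.0144 for Bbs9.

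With 1 sample left out, directions also turned within these ranges. In mild dysplasia Rfx3 ran from -0.133 to 0.328. In high-grade samples Foxj1 ran from -0.188 to 0.527, Rfx2 from -0.198 to 0.188 and Nek11 from -1.07 to 0.037. By rank Rfx2 ran from -0.0496 to 0.106, and between strains Rfx3 ran from -0.275 to 0.244. The sample type interaction of Rfx3 ran from -0.0533 to 0.736. The strain interactions ran from -1.62 to 0.512 for Foxj1, -0.0909 to 0.757 for Rfx3, -1.22 to 0.483 for Rsph9 and -2.18 to 1.22 for Spag17.

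No paired analysis was possible because the labels give no replicate numbers that pair samples across groups. Depth limits Nek11 and Spag17, with median counts of 13 and 23.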

Other observations

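Of 14209 genes whose log2 CPM averaged 1 or more, those with the highest Pearson r with Foxj1 over 13 LCM samples were Traf3ip1 (r = 0.987), Ubxn10, Ccdc121, Wdr63, Ttc21a, Fank1, Mapk15, Aldh3b1, Gm221 and Kcnmb2 (r = 0.964). Traf3ip1 encodes an intraflagellar transport subunit. Over 12 whole lung samples they were Nek5 (r = 0.990), Dnahc12, Lhb, Spag17, Ctxn1, Sdpr, Prr18, Ppm1f, Angpt1 and Lrrc10b (r = 0.952). Among these 10, Spag17 is a member, and Dnahc12 encodes an axonemal dynein heavy chain. The genes share libraries and depth, and the values are a description with no test.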
